A study of Mus musculus with 5 samples.

Results

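The granzymes, perforin and the other proteins of the cytotoxic granule were followed here as 10 genes, Gzma, Gzmb, Gzmk, Gzmm, Prf1, Nkg7, Ctsw, Srgn, Serpinb6b and Serpinb9. They were taken by symbol from the 35275 genes of the expression table, and all 10 were found and passed the filter on low reads. RNA came from spleen cells of 3-month-old wild-type C57BL/6 mice, enriched for CD8 cells, stained and sorted by flow cytometry. The groups are CD4+ regulatory T cells (CD4 Treg, 2 libraries), CD8+ regulatory T cells (CD8 Treg, 1 library) and cells labelled CD49lo (2 libraries). The series compares both regulatory populations with CD8+ effector-like cells, so CD49lo is the effector-like population by elimination. The labels give no sort markers and no sex. They leave unsaid whether replicate libraries are from different mice, so that spread among these libraries, which may be technical, is all that the p-values measure.

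Cytotoxic lymphocytes store granzymes, which are serine proteases, together with perforin in secretory lysosomes and release them toward a target cell. Perforin forms pores through which granzymes reach the cytosol of the target. Serglycin, encoded by Srgn, is the proteoglycan that packs positively charged proteases inside the granule, and the serpins of clade B include inhibitors that protect the killer cell from leaked granzyme. Regulatory T cells have been described to use granzyme B and perforin against other lymphocytes, and CD8+ regulatory T cells have been described as perforin-dependent.

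Library depth ran from 5441444 to 8354971 reads in genes, and 15098 to 17472 genes were detected per library. Values are in RPKM, reads divided by gene length and library depth, so levels of different genes can be set side by side. Labels and lineage genes went together. Foxp3, the transcription factor of CD4+ regulatory T cells, was at 146 RPKM in CD4 Treg (both libraries), at 0.387 in CD8 Treg, and at 1.66 and 0.795 in CD49lo. Cd8a was at 0.412 and 0.352 RPKM in CD4 Treg, at 187 in CD8 Treg, and at 215 and 255 in CD49lo. Cd4 stood at 201 and 219, at 5.77 and at 16.5 and 15.6 RPKM over those groups, and the T cell receptor chain gene Cd3e lay between 302 and 402 in all 5. Xist, a transcript of female cells named here after its values were seen, was at 35.5 and 27.2 RPKM in CD4 Treg and at most 0.0834 in the other 3 libraries, so sex and the CD4 Treg group cannot be told apart.

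The genes lie on 5 chromosomes of mm10, in part beside each other. Gzma (ENSMUSG00000023132, chromosome 13, 113093825 to 113100979, minus strand) and Gzmk (ENSMUSG00000042385, chromosome 13, 113171608 to 113225908, minus strand) lie near each other. Gzmb (ENSMUSG00000015437) is on chromosome 14 at 56258856 to 56262260 and Gzmm (ENSMUSG00000054206) on chromosome 10 at 79689020 to 79695261. Chromosome 10 also holds Prf1 (ENSMUSG00000037202, 61297836 to 61304263) and Srgn (ENSMUSG00000020077, 62493833 to 62527451). Nkg7 (ENSMUSG00000004612) is on chromosome 7 at 43437073 to 43438246 and Ctsw (ENSMUSG00000024910) on chromosome 19 at 5465240 to 5468498. The serpin genes Serpinb6b (ENSMUSG00000042842, 32965209 to 32979067) and Serpinb9 (ENSMUSG00000045827, 33003250 to 33017957) lie close together on chromosome 13.

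Promoters are shown for 6 genes that had different profiles over the libraries: Gzma, Gzmb and Gzmk, highest in CD49lo, Gzmm, highest in CD8 Treg, and Prf1 and Nkg7, high in both. Each is the RefSeq window of GRCm38.p6 from 250 bases before to 50 bases after an annotated start, written 5′ to 3′ along the gene. Capitals mark matches on either strand to short consensus letters: GGTGTGA for T-box factors such as Tbx21 and Eomes, TGTGGT for RUNX factors, TTCNNNGAA for STAT factors and TGANTCA for AP-1.
Gzma promoter, chr13:113100932-113101231, minus strand: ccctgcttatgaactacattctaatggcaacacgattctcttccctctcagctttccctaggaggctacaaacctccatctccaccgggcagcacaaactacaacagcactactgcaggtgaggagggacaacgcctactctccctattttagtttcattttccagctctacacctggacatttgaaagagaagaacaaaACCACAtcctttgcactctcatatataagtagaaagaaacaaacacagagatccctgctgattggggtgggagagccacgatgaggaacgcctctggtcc
Gzmb promoter, chr14:56262285-56262584, minus strand: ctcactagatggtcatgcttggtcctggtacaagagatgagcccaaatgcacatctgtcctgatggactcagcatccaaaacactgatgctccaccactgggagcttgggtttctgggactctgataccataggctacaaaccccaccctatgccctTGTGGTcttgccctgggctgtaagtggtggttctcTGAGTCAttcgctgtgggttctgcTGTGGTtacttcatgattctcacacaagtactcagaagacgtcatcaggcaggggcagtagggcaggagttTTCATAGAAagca
Gzmk promoter, chr13:113180916-113181215, minus strand: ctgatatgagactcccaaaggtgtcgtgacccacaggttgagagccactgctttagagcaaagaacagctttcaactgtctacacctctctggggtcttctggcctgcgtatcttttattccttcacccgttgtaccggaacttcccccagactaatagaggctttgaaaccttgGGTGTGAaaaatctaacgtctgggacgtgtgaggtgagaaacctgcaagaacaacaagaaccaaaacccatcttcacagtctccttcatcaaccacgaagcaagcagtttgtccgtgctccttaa
Gzmm promoter, chr10:79688770-79689069, plus strand: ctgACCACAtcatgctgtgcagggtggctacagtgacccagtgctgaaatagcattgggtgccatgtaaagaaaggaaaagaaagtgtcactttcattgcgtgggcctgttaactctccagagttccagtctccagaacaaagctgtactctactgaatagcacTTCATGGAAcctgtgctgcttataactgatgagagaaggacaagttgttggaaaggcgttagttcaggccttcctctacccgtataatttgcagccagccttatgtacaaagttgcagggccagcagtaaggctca
Prf1 promoter, chr10:61297586-61297885, plus strand: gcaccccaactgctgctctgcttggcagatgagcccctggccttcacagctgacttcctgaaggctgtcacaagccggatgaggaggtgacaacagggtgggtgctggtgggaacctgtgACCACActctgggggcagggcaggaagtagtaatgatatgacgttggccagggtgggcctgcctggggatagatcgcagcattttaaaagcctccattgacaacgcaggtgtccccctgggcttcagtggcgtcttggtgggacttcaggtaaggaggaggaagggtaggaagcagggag
Nkg7 promoter, chr7:43436888-43437187, plus strand: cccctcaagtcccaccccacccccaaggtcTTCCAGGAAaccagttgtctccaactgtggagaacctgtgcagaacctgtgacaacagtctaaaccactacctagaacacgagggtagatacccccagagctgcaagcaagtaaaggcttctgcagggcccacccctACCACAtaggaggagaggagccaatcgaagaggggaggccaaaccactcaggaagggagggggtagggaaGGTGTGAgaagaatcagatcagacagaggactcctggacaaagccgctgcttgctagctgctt
RefSeq windows were matched for 9 of the 10 genes, 11 windows in all, and none was matched for Ctsw. T-box letters were found in 3 of the 11 windows (Gzmk, Nkg7 and a second, downstream start of Gzmm), against 3.98% of 32851 mouse promoters of that length. RUNX letters were found in 7 (Gzma, Gzmb, Gzmm, Prf1, Nkg7, Serpinb9 and a downstream start of Srgn), against 16.8% of promoters. STAT letters were found in 3 (Gzmb, Gzmm and Nkg7, 8.3% of promoters) and AP-1 letters in 1 (Gzmb, 7.81%). The Gzmb window holds RUNX letters at 2 places, starting 93 and 34 bases before the start, with the AP-1 letters between them at 58. The searched letters do not overlap each other in these windows. A match is a description of letters, and no binding was measured. The RefSeq start used for Gzmk lies inside the longer gene span of the table. The whole Gzmb window lies upstream of the Gzmb span of the table, which ends at 56262260. The distances given for Gzmb are therefore from the RefSeq start, not from the start of that span.

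Gzma, a tryptase-like granzyme, ranged over more than 3 orders of magnitude. It was at 1.47 and 0.628 RPKM in CD4 Treg (8 and 3 reads), at 56.4 in CD8 Treg (301 reads; 95% exact Poisson interval 50.3 to 63.2), and at 304 and 1580 in CD49lo. The 3 groups did not overlap, and the pair of CD49lo libraries differed 5.20-fold. Intervals here and below cover counting error only. Gzmb, which encodes the caspase-activating granzyme, was at 5.80 and 4.28 RPKM in CD4 Treg, at 8.59 in CD8 Treg (74 reads; 6.75 to 10.8), and at 137 and 353 in CD49lo. CD8 Treg stood close to CD4 Treg for Gzmb and far below both CD49lo libraries. As means, CD49lo held 942 ± 902 RPKM of Gzma and 245 ± 153 of Gzmb (SD, n = 2), so the SD of Gzma was nearly as large as its mean.

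Gzmk, another tryptase-like granzyme, had 1 read in each CD4 Treg library (0.124 and 0.141 RPKM), 12 reads in CD8 Treg (1.52 RPKM; interval 0.783 to 2.65), and 103 and 188 RPKM in CD49lo (1118 and 1610 reads). Gzmk was the lowest of the 10 genes in all 3 Treg libraries and among the 6 highest in both CD49lo libraries. Gzmm, which encodes a protease that prefers to cut after methionine, had another order. It was at 1.503 and 2.28 RPKM in CD4 Treg, at 44.3 in CD8 Treg (346 reads; 39.7 to 49.2), and at 15.2 and 25.9 in CD49lo, so the CD8 Treg library lay above both CD49lo libraries. Gzmc to Gzmg and Gzmn, the other genes of the cluster around Gzmb, were near 0. Gzmc and Gzmn reached at most 0.881 RPKM, and Gzmd, Gzme, Gzmf and Gzmg had no reads in any library.

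Prf1, the gene of perforin, was at 5.96 and 6.26 RPKM in CD4 Treg, at 53.1 in CD8 Treg, and at 53.2 and 86.2 in CD49lo. CD8 Treg lay within counting error of the lower CD49lo library (49.2 to 57.4 against 49.8 to 56.8). Nkg7, which encodes a granule membrane protein needed for efficient degranulation, was at 5.32 and 6.91 RPKM in CD4 Treg, at 218 in CD8 Treg, and at 275 and 373 in CD49lo. CD8 Treg and CD49lo thus carried Nkg7 at levels over 30 times the CD4 Treg ones. Ctsw, which encodes cathepsin W, a cysteine protease of NK cells and cytotoxic T cells, was at 27.9 and 39.4 RPKM in CD4 Treg, at 198 in CD8 Treg, and at 107 and 136 in CD49lo. CD8 Treg was the highest library for Ctsw.

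Srgn, unlike the proteases, was highest in CD4 Treg. It was at 204 and 223 RPKM in CD4 Treg, at 100.1 in CD8 Treg, and at 130.02 and 172 in CD49lo, so the groups did not overlap and CD8 Treg was lowest. Serpinb9, which encodes an intracellular inhibitor of granzyme B, was at 10.03 and 11.6 RPKM in CD4 Treg, at 15.2 in CD8 Treg, and at 20.96 and 35.4 in CD49lo. Serpinb6b, of the same clade, was at 9.78 and 10.5 RPKM in CD4 Treg, at 24.3 in CD8 Treg, and at 50.9 and 57.6 in CD49lo. Both serpin genes placed the groups in the order CD4 Treg, CD8 Treg, CD49lo, each over a narrower range than Gzma, Gzmb or Gzmk.

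**Figure D1:**
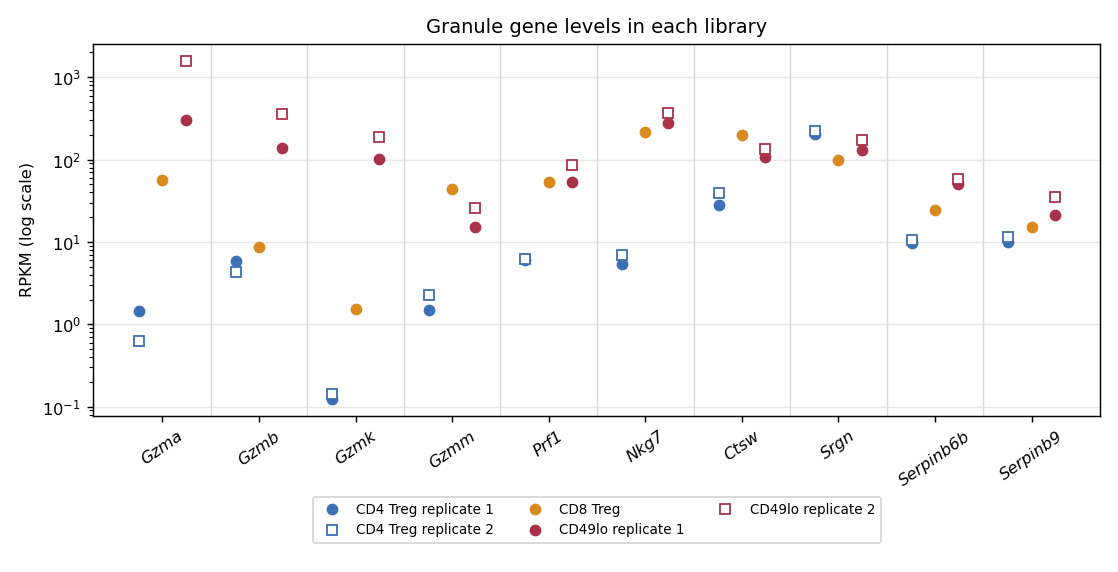
RPKM of the 10 granule genes in each of the 5 libraries, on a log scale; filled and open symbols are replicates 1 and 2, and CD8 Treg has a single library. Gzma, Gzmb and Gzmk are highest in CD49lo, Gzmm and Ctsw in CD8 Treg, and Srgn in CD4 Treg.

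The RPKM of the 10 genes summed to 272 and 305 in CD4 Treg, 720.3 in CD8 Treg, and 1196 and 3007 in CD49lo. Srgn made up 75.02% and 73.1% of that sum in CD4 Treg, 13.9% in CD8 Treg, and 10.9% and 5.72% in CD49lo. Nkg7 led in CD8 Treg with 30.3%, followed by Ctsw with 27.5%. Gzma led in CD49lo with 25.4% and 52.5%.

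Among the 4 granzymes alone, Gzmb led in CD4 Treg, with 65.2% and 58.3% of summed RPKM of 8.89 and 7.33. In CD8 Treg the sum was 111 RPKM, of which Gzma made up 50.9% and Gzmm 39.9%, while Gzmb made up 7.75%. In CD49lo the sums were 559 and 2147 RPKM, with Gzma at 54.3% and 73.6%, Gzmb at 24.6% and 16.5%, and Gzmm at 2.71% and 1.21%. The ratio of Gzmm to Gzmb was 5.15 in CD8 Treg, 0.259 and 0.534 in CD4 Treg, and 0.110 and 0.0733 in CD49lo. CD8 Treg was the only library of the 5 with more Gzmm than Gzmb.

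Ratios of proteases to their partners separated the groups in other ways. Gzmb over Serpinb9 was 0.578 and 0.369 in CD4 Treg, 0.566 in CD8 Treg, and 6.56 and 9.99 in CD49lo, so the inhibitor's transcript exceeded the protease's in all 3 Treg libraries and in neither CD49lo library. Gzmb over Prf1 was 0.972 and 0.683 in CD4 Treg, 0.162 in CD8 Treg and 2.58 and 4.10 in CD49lo. Nkg7 over Srgn was 0.0261 and 0.0310 in CD4 Treg, and 2.18, 2.12 and 2.17 in CD8 Treg and CD49lo. These ratios describe transcripts in single libraries and carry no test.

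**Figure D2:**
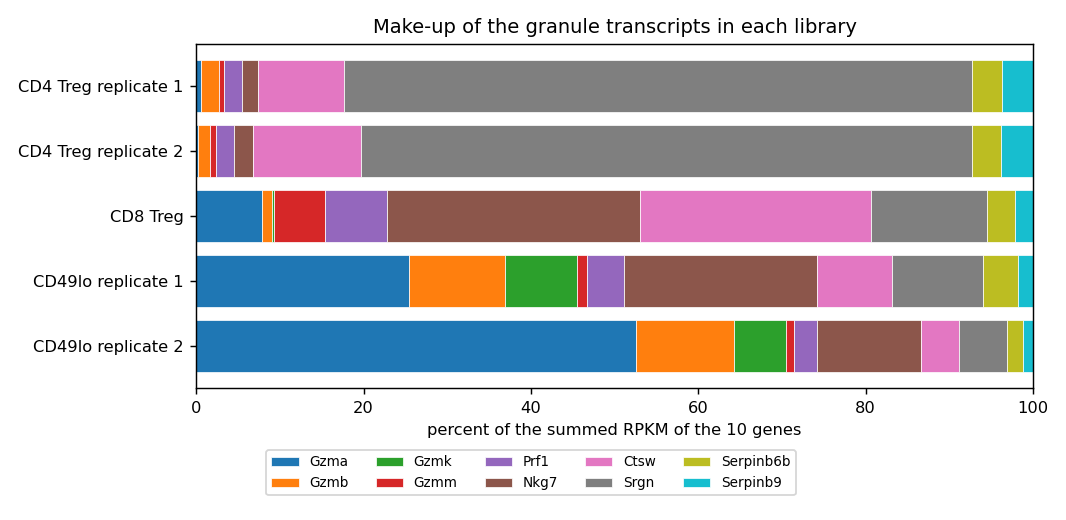
Share of each of the 10 genes in their summed RPKM, 1 bar per library. Srgn takes 75.02% and 73.1% in CD4 Treg, Nkg7 and Ctsw together most of the bar in CD8 Treg, and Gzma 25.4% and 52.5% in CD49lo.

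The first comparison asks how the granule genes of CD4+ regulatory T cells differ from those of the effector-like population. A total of 9 genes were lower in CD4 Treg than in CD49lo and 1, Srgn, was higher, by limma with adjusted p under 0.05 over all 13298 genes tested. Of all genes tested, 12.8% were called lower, 9.41% higher and 22.2% either way. After scaling, the libraries of the groups did not overlap for any of the 10, nor for 60.2% of all genes (32.2% lower and 28% higher). The median log2 fold change was -3.21 over the 10 genes and -0.03 over all genes. In bulk RNA, fewer cells of a type and less RNA per cell cannot be told apart.

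Nkg7 had the smallest p among the 10, with a log2 fold change of -5.58 ± 0.19 (SE; adjusted p = 2.44e-07). Gzma and Gzmk had the largest differences. Gzma differed by -8.83 ± 0.60 (adjusted p = 1.28e-05), Gzmk by -7.75 ± 0.36 (1.42e-06), Gzmb by -5.31 ± 0.36 (1.28e-05) and Gzmm by -3.08 ± 0.33 (0.000159). Fold changes are on the log2(RPKM + 0.5) scale, which understates those of genes near 0. For Gzmk the pooled reads were 2728 in CD49lo and 2 in CD4 Treg, a ratio of 1065 with a counting interval of 294 to 8795. For Gzma they were 11333 and 11, a ratio of 804 (449 to 1611), with 9104 of the CD49lo reads in replicate 2. The log2 fold change of Gzma was -9.99 without CD49lo replicate 1 and -7.65 without replicate 2.

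Prf1 differed by -3.34 ± 0.21 (adjusted p = 8.16e-06), Serpinb6b by -2.34 ± 0.15 (8.79e-06), Ctsw by -1.82 ± 0.18 (0.000105) and Serpinb9 by -1.27 ± 0.22 (0.0028). Srgn was higher by 0.54 ± 0.13 (adjusted p = 0.0184), a 1.45-fold difference. Srgn was the least stable call: its adjusted p was 0.110 and 0.190 without CD4 Treg replicate 1 and 2, and that of Serpinb9 was 0.0654 without CD4 Treg replicate 1. Without CD49lo replicate 1, or without replicate 2, limma called 0 of the 10 genes and 0 of all genes. All 10 kept an unadjusted p under 0.05 in both of those fits, with adjusted p from 0.0519 to 0.166, and all 10 were called in both when only genes with reads in every library were fitted, a setting chosen after seeing the data. By limma-voom on the recovered reads, Gzma was not called (adjusted p = 0.0876) and the other 9 were.

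Markers listed for other cell types moved with the same groups, and their part in these differences was not tested. A listed marker need not come from the cell type it is listed for. Eomes, on the NK cell list, is also counted below among factors linked to granule genes. The 12 NK cell markers other than Gzma, which is also on that list, summed to 31.7 and 36.4 RPKM in CD4 Treg, to 348 in CD8 Treg, and to 323 and 451 in CD49lo, so CD8 Treg lay between the CD49lo libraries. With Gzma counted, 11 of 13 were lower and 1 higher in CD4 Treg than in CD49lo. The NK receptor genes Ncr1 and Klra8 had no reads in either CD4 Treg library. Single NK cell markers differed in order between CD8 Treg and CD49lo. Ncr1 was at 18.8 RPKM in CD8 Treg and at 5.28 and 7.03 in CD49lo, and Klra8 at 12.6, and 2.84 and 4.53. Tyrobp was at 42.3 RPKM in CD8 Treg and at 71.3 and 86.4 in CD49lo, and Irf8 at 13.6, and 38.4 and 40.9. Of the 13, 0 were called higher in CD8 Treg than in CD49lo and 2 lower. B cell markers summed to 556 and 613, 1589, and 2958 and 2683 RPKM, with 13 of 14 lower in CD4 Treg, where Ebf1 was at 0 in replicate 1 and Fcer2a and Spib in replicate 2. Ighm, the B cell marker not called, made up most of the CD4 Treg sums, at 444 and 521 RPKM. It was at 285 in CD8 Treg, and at 518 and 336 in CD49lo. Monocyte, macrophage and neutrophil markers summed to 24.7 and 7.81, 503, and 634 and 644 RPKM, with 11 of 12 lower, and Elane and Fcgr1 at 0 in both CD4 Treg libraries. Dendritic cell markers summed to 65.6 and 48.1, 288, and 707 and 740.1 RPKM, with 8 of 12 lower, and Xcr1 and Cd209a at 0 in both CD4 Treg libraries. Mast cells and basophils, which also hold serglycin, had marker sums of at most 7.33 RPKM, with Tpsb2 at 0 in all 5 libraries.

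The second comparison asks how CD8+ regulatory T cells differ from the effector-like population, and it shares the CD49lo libraries with the first. A total of 4 genes were lower in CD8 Treg than in CD49lo, Gzmk, Gzmb, Gzma and Serpinb6b, and 0 were higher. Of all genes tested, 3.65% were called lower, 1.71% higher and 5.37% either way. The single CD8 Treg library lay outside the range of the CD49lo libraries for 9 of the 10 genes after scaling, and for 74.9% of all genes (40.9% lower and 34.1% higher). Prf1 was the gene that overlapped. The median log2 fold change was -0.57 over the 10 genes and -0.04 over all genes.

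Gzmk differed by -6.00 ± 0.45 (SE; adjusted p = 0.000347), Gzmb by -4.47 ± 0.45 (0.00102), Gzma by -3.47 ± 0.74 (0.0286) and Serpinb6b by -1.01 ± 0.18 (0.0144). Pooled reads put Gzmb 27.1 times higher in CD49lo than in CD8 Treg (counting interval 21.5 to 34.5) and Gzmk 92.5 times (52.9 to 179). The remaining 6 genes did not pass the test. Prf1 differed by -0.21 ± 0.26 (adjusted p = 0.72, 95% interval of the log2 difference -0.80 to 0.37), and Nkg7 by -0.42 ± 0.23 (0.373; -0.94 to 0.10). Gzmm stood at 1.27 ± 0.40 (adjusted p = 0.115; 0.36 to 2.18) and Ctsw at 0.85 ± 0.22 (0.0618; 0.35 to 1.35), both with the CD8 Treg value above the CD49lo libraries. Srgn stood at -0.44 ± 0.16 (adjusted p = 0.178; -0.81 to -0.07) and Serpinb9 at -0.69 ± 0.27 (0.201; -1.30 to -0.08). The granzymes of this comparison therefore did not share 1 direction: the CD8 Treg value lay below CD49lo for Gzma, Gzmb and Gzmk and above it for Gzmm.

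These calls rest on the way the spread was estimated. With a variance prior that does not follow the mean, 0 of the 10 genes were called by limma (6 at an unadjusted p under 0.05), and 1 was called without a filter on low reads (Gzmk), and 1 when genes needed 1 RPKM in every library of a group (Gzmk). By limma-voom on the recovered reads 6 were called, the same 4 and, as higher, Ctsw (adjusted p = 0.00352) and Gzmm (0.00465). In the fit without CD4 Treg replicate 1 or 2, 2 genes were called in each. Without CD49lo replicate 1 or 2, 0 were called in each (7 and 5 at an unadjusted p under 0.05), or 6 and 6 when only genes with reads in every library were fitted. The log2 change of Gzma was -4.64 without CD49lo replicate 1 and -2.30 without replicate 2, and that of Prf1 turned to 0.11 without replicate 2. Of all calls in this comparison 31.9% were higher, against 20.4% without a scaling factor, which moved the median of all genes by -0.12. Beside these values, 5 of 12 dendritic cell markers were lower in CD8 Treg, as were 2 of 13 NK cell markers (Gzma and Irf8), 1 of 14 B cell markers, 1 of 12 monocyte, macrophage and neutrophil markers, 1 of 9 red cell and platelet markers and 1 of 9 T cell markers. The part of such cells was not tested.

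The third comparison sets CD8 Treg against CD4 Treg and shares its libraries with the other comparisons. A total of 7 genes were higher in CD8 Treg, Nkg7, Ctsw, Prf1, Gzmm, Gzma, Serpinb6b and Gzmk, and 1 was lower, Srgn. Of all genes tested, 8.5% were called higher, 8.35% lower and 16.9% either way. The CD8 Treg value lay outside the CD4 Treg libraries for all 10 genes, and for 81.4% of all genes (42.1% higher and 39.3% lower). The median log2 fold change was 2.21 over the 10 genes and 0.02 over all genes.

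Nkg7 was higher by 5.17 ± 0.23 (SE; adjusted p = 2.27e-06), Gzmm by 4.35 ± 0.40 (0.000116), Prf1 by 3.13 ± 0.26 (6.79e-05) and Ctsw by 2.67 ± 0.22 (6.64e-05). Gzma was higher by 5.36 ± 0.74 (adjusted p = 0.00119) and Serpinb6b by 1.33 ± 0.18 (0.00121). Srgn was lower, at -0.98 ± 0.16 (adjusted p = 0.00333). Gzmk was called at 1.75 ± 0.45 (adjusted p = 0.0259), but on 12 reads against 2, a ratio of 11.5 with a counting interval of 2.56 to 106, and it was not called with a pseudocount of 1 (adjusted p = 0.0861) or by limma-voom (0.48).

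Gzmb and Serpinb9 did not pass the test in this comparison. Gzmb stood at 0.83 ± 0.45 (adjusted p = 0.254, 95% interval -0.17 to 1.84) and Serpinb9 at 0.58 ± 0.27 (0.191; -0.03 to 1.19). The interval of Gzmb ends below the lower end of that of Gzmm (3.44 to 5.26), Prf1 (2.54 to 3.71) and Nkg7 (4.65 to 5.69). By limma-voom Gzma lost its call (adjusted p = 0.358). Srgn was not called without CD4 Treg replicate 2 (adjusted p = 0.0699), and Gzmk without CD4 Treg replicate 1 (0.106) or replicate 2 (0.112). Without CD49lo replicate 1 or 2, libraries that enter only through the spread, limma called 0 of the 10 in each, with 9 and 9 at an unadjusted p under 0.05, or 10 and 8 when only genes with reads in every library were fitted. Markers listed for other cell types moved here too. In CD8 Treg, 13 of 14 B cell markers and 10 of 12 monocyte, macrophage and neutrophil markers were higher. So were 11 of 13 NK cell markers (Gzma among them). Of 12 dendritic cell markers, 4 were higher, 2 lower and 6 not called. The part of all these was not tested.

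**Figure D3:**
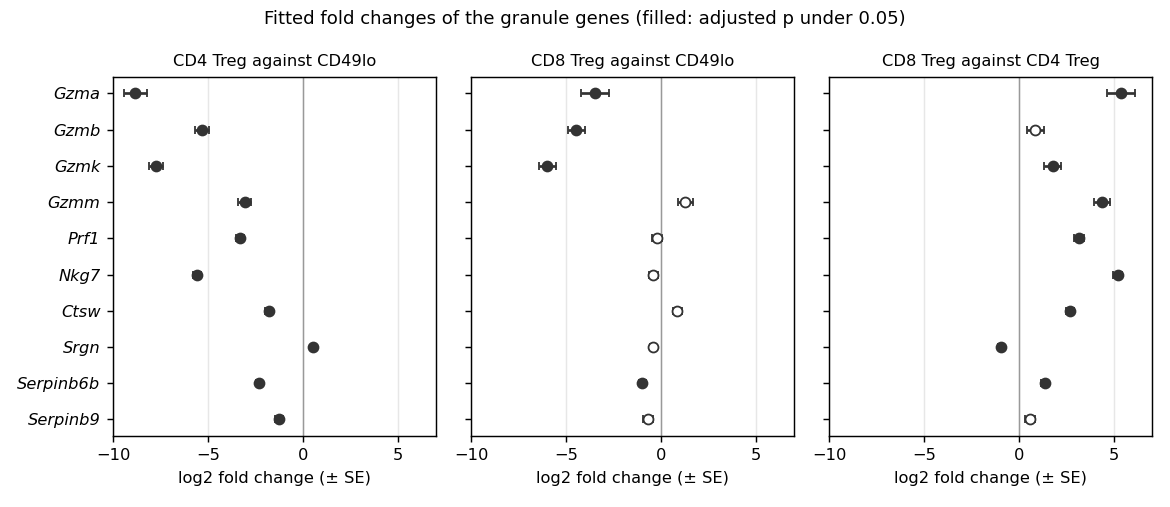
Fitted log2 fold changes of the 10 genes in the 3 comparisons, with bars of 1 SE; filled points have an adjusted p under 0.05 by limma. Granzymes a, b and k are lower in both Treg populations than in CD49lo, while Gzmm, Prf1, Nkg7 and Ctsw are called lower in CD4 Treg and not in CD8 Treg.

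The CD49lo replicates differed in their granule genes. All 10 genes were higher in replicate 2 than in replicate 1, as were 47.7% of all genes tested, and the median log2 difference was 0.68 over the 10 genes and -0.01 over all genes. Gzma differed most, by 2.34 (percentile 99.7 of all genes tested), then Gzmb by 1.33 (98.4), Gzmk by 0.84 (95.3), Gzmm by 0.72 (93.6), Serpinb9 by 0.71 (93.3) and Prf1 by 0.66 (92.2). These 6 exceeded 1.5-fold, as did 9.38% of all genes upward and 9.93% downward. Nkg7 (0.41), Srgn (0.37), Ctsw (0.32) and Serpinb6b (0.14) differed less. In CD4 Treg the corresponding median was 0.10 over the 10 genes and 0 over all genes. Gzma and Gzmb were there lower in replicate 2, by -0.81 and -0.41, on 3 to 51 reads. On this scaled log2(RPKM + 0.5) difference Gzma was the 1 member past 1.5-fold, against 7.84% of all genes lower and 7.64% higher by that much. By plain RPKM Gzmm was also past it, at 1.52-fold.

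Other transcripts also differed between the CD49lo replicates, and their part was not tested. The gamma-delta T cell constant gene Tcrg-C2 was at 21.7 and 84.8 RPKM, and the NK receptor gene Klre1 at 22.3 and 109. Ncr1, which marks NK cells, was at 5.28 and 7.03 RPKM. The B cell marker sums were 2958 and 2683, and those of red cells and platelets 42.9 and 80.9. A test of 1 library against another was not made.

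**Figure D4:**
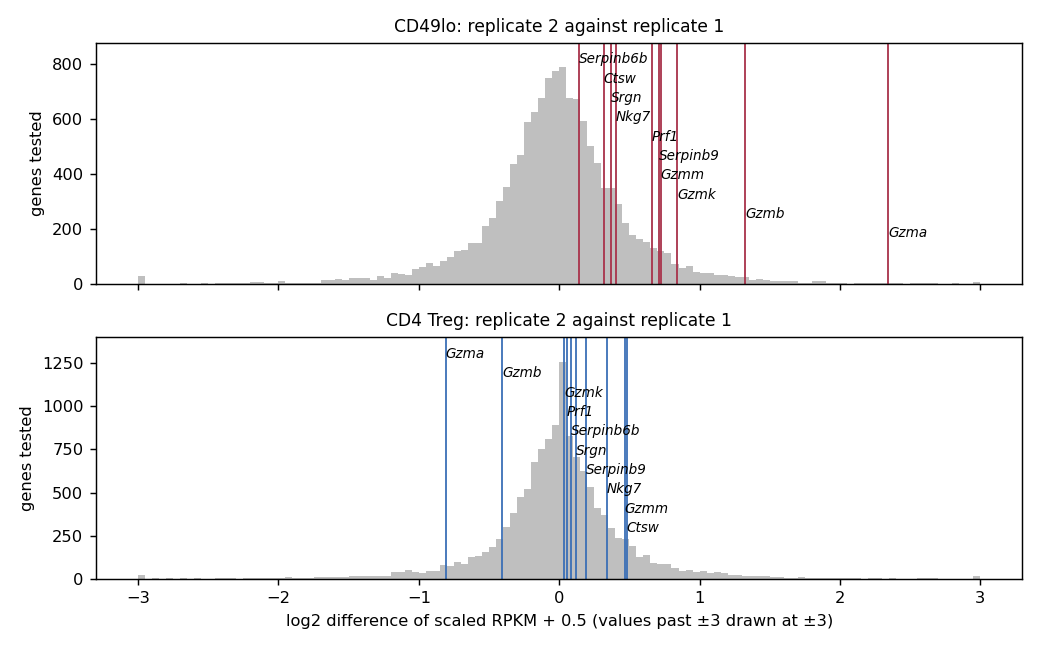
Log2 differences between replicates 2 and 1 within CD49lo (top) and CD4 Treg (bottom): grey bars count all genes tested, and lines mark the 10 granule genes. All 10 lie right of 0 in CD49lo, with Gzma at 2.34, while in CD4 Treg they lie on both sides.

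The enzymes and inhibitors that act on granule proteases were counted next. Of 11 cathepsins, cystatins and legumain, 6 were lower and 1 higher in CD4 Treg than in CD49lo, with a list median of -0.98. Ctsh (-4.58 ± 0.32), Ctsd (-1.45 ± 0.11), Cst3 (-0.98 ± 0.17) and Ctsc (-1.18 ± 0.14), whose product cathepsin C activates progranzymes, were among those lower, and Ctss (0.47 ± 0.11) was higher. Against CD49lo, 0 of the 11 were called in CD8 Treg (limma adjusted p under 0.05; list median -0.39). Against CD4 Treg, 4 were higher in CD8 Treg and 1 lower, including Ctsh (3.04 ± 0.39) and Ctsd (1.21 ± 0.13). The share of all genes called either way was 22.2%, 5.37% and 16.9% in these comparisons, in that order. Ctsd, Ctsh and Ctss are also abundant in myeloid and B cells. Marker sums of those cells were lowest in CD4 Treg, as were Ctsd and Ctsh. Ctss had a different order. Its CD4 Treg libraries were highest (354 and 387 RPKM), the CD49lo libraries came next (251 and 297), and the CD8 Treg library was lowest (187). What such cells contributed was not tested.

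Genes that carry granules to the membrane were counted in the same way. Of 23 tested genes of transport, docking and fusion, 2 were lower and 1 higher in CD4 Treg than in CD49lo, with a list median of -0.02, where 22.2% of all genes were called. Sytl3, a Rab27 effector, was lower (-4.50 ± 0.31), as was Lyst (-1.41 ± 0.14), which controls granule size, while Sytl1 was higher (1.497 ± 0.21). In CD8 Treg, 1 was lower than in CD49lo, where 5.37% of all genes were called: Stx11, the syntaxin of granule fusion, at 4.05 RPKM against 14.9 and 15.1 in CD49lo (-1.65, adjusted p = 0.00441). Against CD4 Treg, 3 were higher in CD8 Treg (Sytl3, Lyst and Hps1) and 3 lower (Stx11, Sytl1 and Arl8b), where 16.9% of all genes were called. Rab27a, Unc13d and Stxbp2, named here after their values were seen, were not called in any comparison, with levels of 20.7 to 45.2 RPKM in all libraries. Of 15 genes of lysosomal membrane, acidification and protease sorting, 4 were lower and 1 higher in CD4 Treg than in CD49lo, among them Gnptab (-1.62 ± 0.14), which starts the mannose phosphate tag of lysosomal enzymes. In CD8 Treg against CD49lo 0 of these 15 were called, where 5.37% of all genes were.

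Serglycin carries chondroitin sulphate chains, and genes of the enzymes that build such chains were counted beside it. Of 13 tested glycosaminoglycan genes, 5 were lower and 0 higher in CD4 Treg than in CD49lo. In CD8 Treg, 0 were called against CD49lo, and 6 were higher and 0 lower than in CD4 Treg. The share of all genes called either way was 22.2%, 5.37% and 16.9% in these comparisons, in that order. Chsy1, a chondroitin synthase, was at 6.23 and 5.56 RPKM in CD4 Treg, at 70.5 in CD8 Treg, and at 68.0 and 88.3 in CD49lo. Its log2 fold change in CD4 Treg against CD49lo was -3.58 ± 0.15 (adjusted p = 7.51e-07). Chst11, a chondroitin sulphotransferase, was at 1.25 and 1.26, 13.4, and 9.33 and 11.7 RPKM (-2.61 ± 0.20 in CD4 Treg against CD49lo; 2.32e-05). Thus CD4 Treg held the most Srgn and the least Chsy1 and Chst11 transcript. The other 8 genes did not pass the test in CD4 Treg against CD49lo, and among them Chst12, named here after its values were seen, had the group order of Srgn, at 9.89 and 9.62 RPKM in CD4 Treg, at 6.07 in CD8 Treg, and at 7.96 and 9.41 in CD49lo.

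Of 16 serpins other than Serpinb6b and Serpinb9, 6 were expressed enough to be tested. Serpinb1a (-2.99 ± 0.50) and Serpinb6a (-0.87 ± 0.21) were lower in CD4 Treg than in CD49lo. Serpina3g was lower in CD8 Treg than in CD49lo (-0.91, limma adjusted p = 0.0342). Serpinb1a was higher in CD8 Treg than in CD4 Treg (2.37 ± 0.61, limma adjusted p = 0.0277). Of the 6, 2, 1 and 1 were called in these comparisons, in that order. The share of all genes called either way was 22.2%, 5.37% and 16.9%. The Serpinb9 paralogs Serpinb9b to Serpinb9f did not exceed 0.375 RPKM in any library.

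**Figure D5:**
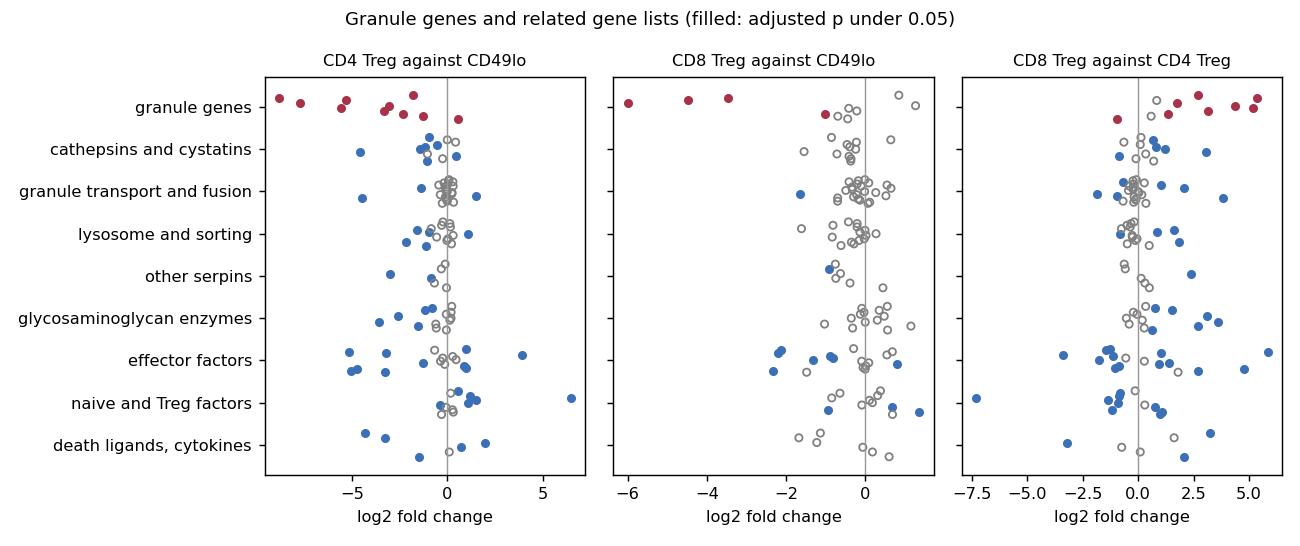
Log2 fold changes of the granule genes (red when called) and of the genes of 8 related lists (blue when called) in the 3 comparisons; each point is 1 tested gene, and filled points have an adjusted p under 0.05 by limma. Horizontal scales differ between panels. Transport and fusion genes have medians of -0.02, -0.18 and -0.19, and granule genes of -3.21, -0.57 and 2.21.

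Transcription factors that have been linked to granule genes fell into different patterns. Of 16 such factors, 6 were lower and 4 higher in CD4 Treg than in CD49lo. In CD8 Treg, 6 were lower and 1 higher than in CD49lo, and 6 were higher and 7 lower than in CD4 Treg. The share of all genes called either way was 22.2%, 5.37% and 16.9% in these comparisons, in that order. Tbx21, which encodes T-bet, was at 2.20 and 1.99 RPKM in CD4 Treg, at 64.3 in CD8 Treg, and at 55.2 and 90.5 in CD49lo. Eomes was at 1.18 and 0.929, 82.4, and 57.0 and 55.2 RPKM. Both were called higher in CD8 Treg than in CD4 Treg (4.75 ± 0.27 and 5.85 ± 0.20), and neither was called against CD49lo (adjusted p = 1 for Tbx21 and 0.0894 for Eomes). Both genes were, like Prf1 and Nkg7, high in CD8 Treg and CD49lo and low in CD4 Treg. Eomes was highest in CD8 Treg, as Gzmm and Ctsw were, while Tbx21 in CD8 Treg lay between the CD49lo libraries.

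Other factors were lower in CD8 Treg than in CD49lo, as were Gzmb, Gzmk and 5 of 12 dendritic cell markers. The part of such cells was not tested. Id2 encodes an inhibitor of E proteins. It was at 19.3 and 23.4 RPKM in CD4 Treg, at 40.8 in CD8 Treg, and at 189 and 232 in CD49lo. Its log2 fold change in CD8 Treg against CD49lo was -2.21 (limma adjusted p = 0.00045). Zeb2, which acts with T-bet in effector cells, was at 0.283 and 0.222, 4.14, and 16.01 and 38.4 RPKM (-2.33; 0.0129). Bhlhe40, at 16.4 and 17.7 RPKM in CD4 Treg, had 5.501 in CD8 Treg against 20.2 and 38.6 in CD49lo (-2.12; 0.00563), and Prdm1, which encodes Blimp-1 and was at 8.36 and 8.46 in CD4 Treg, had 1.96 against 5.05 and 7.41 (-1.32; 0.0207). Stat4 was the 1 member called higher in CD8 Treg than in CD49lo (0.80; 0.0272). Ikzf2, which encodes Helios, was at 47.7 and 50.4 RPKM in CD4 Treg, at 3.96 in CD8 Treg, and at 2.63 and 3.00 in CD49lo.

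A further 11 factors of naive or regulatory cells have been linked to lower granule expression. Among them, 5 were higher and 1 lower in CD4 Treg than in CD49lo. In CD8 Treg, 2 were higher and 1 lower than in CD49lo, and 3 were higher and 6 lower than in CD4 Treg. The share of all genes called either way was 22.2%, 5.37% and 16.9% in these comparisons, in that order. In CD8 Treg against CD49lo, Satb1 (1.37, adjusted p = 0.00278) and Lef1 (0.68, 0.0146) were higher and Runx1 (-0.93, 0.0177) lower. Like those of the granule genes, the calls on these lists ended without either CD49lo library, and with a prior that does not follow the mean 2 of all genes were called in CD8 Treg against CD49lo. Satb1 was at 109.8 RPKM in CD8 Treg, at 57.1 and 56.0 in CD4 Treg, and at 53.6 and 40.2 in CD49lo. The transcript of Runx3, which binds RUNX letters, was at 60.6 RPKM in CD8 Treg, at 62.3 and 62.8 in CD49lo, and at 26.9 and 22.9 in CD4 Treg.

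The genes most like the granule genes across the 5 libraries were named by a distance between log2(RPKM + 0.5) values centred on their mean over the libraries, among 9119 genes with a depth-scaled level of at least 10 RPM in the highest library. For Gzmb they were Cx3cr1 (distance 1.31), Lgals3 (1.46) and Ace (1.54), against a median distance of 5.65 over all compared genes. For Gzmk they were Cx3cr1 (1.83), S1pr5 (2.94) and Lgals3 (3.00), with a median of 8.01. Gzmb and Gzmk thus shared their nearest gene. Cx3cr1, which encodes the fractalkine receptor, was at 0.130 and 0.197 RPKM in CD4 Treg, at 2.34 in CD8 Treg, and at 34.95 and 76.8 in CD49lo. The marker sums of monocytes, macrophages and neutrophils and of dendritic cells had the same group order. So had those of other lists, B cells among them. The first sum was at 503 RPKM in CD8 Treg and at 634 and 644 in CD49lo, and the second at 288, and 707 and 740.1. These lie nearer each other than the values of Cx3cr1. Of the first list, 1 of 12 markers was called lower in CD8 Treg than in CD49lo and 0 higher. The part of such cells was not tested.

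For Gzmm the nearest genes were Klra8 (0.57), St3gal6 (0.59) and Lrrk1 (0.70), against a median of 4.04. Klra8, a Ly49 receptor gene, was at 0 in both CD4 Treg libraries, at 12.6 RPKM in CD8 Treg, and at 2.84 and 4.53 in CD49lo. For Prf1 they were Btk (0.16), Tm6sf1 (0.33) and Klrc2 (0.40), against a median of 3.64, and Btk is also a gene of B and myeloid cells. For Nkg7 they were Ddx3y (0.46), Atp8b4 (0.69) and Haao (0.77), against a median of 6.00. Ddx3y is on the Y chromosome and was at 0.0701 and 0 RPKM in CD4 Treg, at 18.3 in CD8 Treg, and at 18.3 and 27.4 in CD49lo, so that it, like Xist, set the CD4 Treg libraries apart from the other 3. For Srgn they were Gpatch3 (0.072), Dusp5 (0.10) and Btg2 (0.12), against a median of 1.02. Among the 10 genes, Serpinb6b and Serpinb9 were closest to each other (1.16), then Gzmm and Prf1 (1.27).

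One further limit bears on Gzmk. In GENCODE M21 its span overlaps Esm1 on the opposite strand, and Esm1 had 0 and 0 reads in CD4 Treg, 2 in CD8 Treg, and 55 and 72 in CD49lo. Whether counting used strand is not given in the sources used here, so reads of Gzmk and Esm1 in shared exons cannot be told apart. None of the other 9 genes overlapped another annotated gene.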

How the data were processed

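Libraries were made from total RNA by a standard Illumina protocol, per the labels' protocols, and CASAVA, STAR and mm10 appear, without versions, in the submitters' processing notes. The table deposited by the authors is described as counts but holds RPKM. RPKM times gene length fell on whole multiples of 1 read for 100% of values (within 0.02), so the reads were recovered. Depths were 6203090 and 5441444 (CD4 Treg), 6073243 (CD8 Treg), 8354971 and 6564411 (CD49lo) reads in genes, and a count of 0 allows 0.359 to 0.551 RPM (3 reads). RPKM was divided by trimmed-mean factors from the recovered reads, and limma 3.58.1 (R 4.3.3) fitted the 3 group means of log2(RPKM + 0.5) to the 5 libraries together, leaving 2 residual degrees of freedom. The variance prior followed mean RPM. Genes needed 10 reads at the median depth in 1 library and 15 in total, which left 13298. Called means Benjamini-Hochberg adjusted p under 0.05 over all of them, two-sided. CD8 Treg, with n = 1, is assumed to vary like the other groups. The scripts were tested on simulated data.

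The 10 genes, the gene lists, the markers and the fit were chosen with earlier results of these data known. From each list, up to 4 called genes with the smallest p per comparison and called genes against the list's majority were named; others are marked. Alternatives changed the scaling, pseudocount, filter, prior, test and libraries.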

Additional observations from a re-analysis of the deposited data

How the results depend on the processing

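Among the 10 granule genes, no direction changed under any setting except that of Prf1 in CD8 Treg against CD49lo, which ran from -0.54 without CD49lo replicate 1 to 0.11 without replicate 2, with all genes that passed the filter and with only genes that had reads in every library. Counts below are by limma unless stated, first for CD4 Treg and then for CD8 Treg against CD49lo, and last for CD8 Treg against CD4 Treg. Calls among the 10 genes were 10, 4 and 8, and among all genes 2954, 714 and 2241. Without a filter they were 4, 1 and 3, and 678, 461 and 1087 among all genes. With a prior that does not follow the mean they were 8, 0 and 5, and 1961, 2 and 1192. With a filter of 1 RPKM in every library of a group, CD8 Treg against CD49lo gave 1 and 291. A prior that follows the mean log2 RPKM gave 365 genes there, and a fit of only the groups compared gave 760 for CD8 Treg against CD4 Treg. Of the calls in CD8 Treg against CD49lo, 31.9% were higher, 50.8% by limma-voom, 53.6% with the 1 RPKM filter, 85.7% without a filter and 20.4% without a scaling factor. With 1 library left out, calls among the 10 genes ran from 0 to 9, 0 to 2 and 0 to 7, and among all genes from 0 to 1460, 0 to 204 and 0 to 975. With only genes that had reads in every library, the same left-out fits gave 10 to 10, 6 to 7 and 8 to 10, and 2175 to 2407, 786 to 1136 and 1844 to 2472, with 1129 and 1136 for CD8 Treg against CD49lo without CD4 Treg replicate 1 and 2. The 0 counts came without CD49lo replicate 1 or 2, where 3634 and 3575, 2206 and 2248, and 3635 and 3639 genes had an unadjusted p under 0.05. The cause of these changes was not tested. The fits limited to genes with reads in every library were added after seeing the data. With the replicate number as a block, CD4 Treg against CD49lo gave 10 and 3572 calls. Same-numbered libraries did not deviate together (Pearson r = -0.0202 across 13298 genes). With 2 libraries per group this cannot exclude a shared source, and the main fit assumed no pairing. Depth limits Gzmk and Gzma in CD4 Treg, which rest on 1 and 1 and on 8 and 3 reads.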

Other observations

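Ligands and cytokines that act without granules were counted as a further group of 6 genes. In CD4 Treg against CD49lo, 3 were lower, Fasl (-4.35 ± 0.39, SE), Ifng (-3.29 ± 0.45) and Tnfsf14 (-1.48 ± 0.25), and 2 higher, Lta (1.99 ± 0.34) and Tnf (0.69 ± 0.20). Fasl, the ligand of the death receptor Fas, was at 1.42 and 0.760 RPKM in CD4 Treg, at 12.9 in CD8 Treg, and at 20.8 and 48.3 in CD49lo. In CD8 Treg against CD49lo 0 of the 6 were called by limma. In CD8 Treg against CD4 Treg, Fasl (3.21 ± 0.48) and Tnfsf14 (2.08 ± 0.30) were higher and Lta (-3.22 ± 0.42) lower. The share of all genes called either way was 22.2%, 5.37% and 16.9% in these comparisons, in that order.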
